A study of Mus musculus with 2 samples.

Results

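Small RNA was sequenced from hippocampal tissue of aged mice, and 5 microRNA (miRNA) genes of imprinted loci are described here out of 2202 miRNA genes in the count files. They are Mir335 of the Mest locus, Mir296 and Mir298 of the Gnas/Nespas locus, Mir483 of the Igf2 locus and Mir675 of the H19 locus. The members were taken by their GENCODE M21 gene names, and all 5 were found in both files. Both libraries came from female B6CASTF1/J mice, 18 to 20 months old, which are hybrids of a C57BL/6J mother and a CAST/EiJ father. They form a single group, numbered biological replicates 1 and 2, with no treatment, genotype, age or sex contrast. The tissue is labelled only as a hippocampal layer, without saying which, and RNA under 30 nt was sequenced. The labels number the animals differently but give 1 donor record, so the spread between the libraries may be partly technical.

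Imprinted genes are transcribed mainly from the chromosome of one parent. Mest, Igf2 and the Gnas antisense RNA Nespas are known as paternally expressed in many tissues. H19, the noncoding neighbour of Igf2, is known as maternally expressed. Imprinting can differ between tissues, so none of this need hold for each cell type of the hippocampal samples, Igf2 included. A miRNA cut from an imprinted transcript can share its parental bias, and each hairpin yields a 5p and a 3p mature arm, of which the seed (bases 2 to 8) leads target pairing. In the adult brain Igf2 is known chiefly from choroid plexus and meninges, and H19 is largely silent after birth. The deposited counts neither separate the alleles nor the arms, so parental origin and arm use were not measured.

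The mature sequences are shown because these are the annotated products of the hairpins to which reads were counted, and their seeds set the 5 genes apart from one another. They are from RefSeq (GRCm38.p6), 5′ to 3′, with the seed in capitals.
mmu-miR-335-5p: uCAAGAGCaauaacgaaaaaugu
mmu-miR-335-3p: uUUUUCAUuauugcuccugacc
mmu-miR-296-5p: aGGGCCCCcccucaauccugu
mmu-miR-296-3p: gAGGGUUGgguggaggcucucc
mmu-miR-298-5p: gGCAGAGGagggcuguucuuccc
mmu-miR-298-3p: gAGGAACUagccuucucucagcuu
mmu-miR-483-5p: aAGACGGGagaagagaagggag
mmu-miR-483-3p: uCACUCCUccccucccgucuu
mmu-miR-675-5p: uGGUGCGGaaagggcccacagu
mmu-miR-675-3p: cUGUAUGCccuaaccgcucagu
The 10 arms carried 10 distinct seeds, and 0 of these occurred in another gene among the 1738 mature miRNAs of the RefSeq table, which is not complete. Neighbours on the chromosome are thus not seed relatives: miR-296 and miR-298, encoded side by side, have no seed in common. The arms also differ in composition. The 5p arm of miR-335 holds 30.4% G and C, whereas the 5p arms of miR-296, miR-298 and miR-675 hold 66.7%, 65.2% and 63.6%. The 5p arm of miR-483 consists of purines to 95.5%, and its 3p arm to 9.52%.

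The hairpins of the neighbouring pair Mir298 and Mir296 and of Mir675 are shown whole, with both arms in capitals, because the largest difference between the libraries among the members, and their 1 case of no counts, were found there.
Mir298: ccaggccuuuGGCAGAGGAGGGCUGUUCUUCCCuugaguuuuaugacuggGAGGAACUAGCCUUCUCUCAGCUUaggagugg
Mir296: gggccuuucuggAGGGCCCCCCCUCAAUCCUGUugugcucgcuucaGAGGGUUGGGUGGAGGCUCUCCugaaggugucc
Mir675: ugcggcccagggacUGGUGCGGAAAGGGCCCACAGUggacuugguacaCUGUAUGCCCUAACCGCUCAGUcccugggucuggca
Each arm forms part of a stem in the structure of lowest predicted free energy. That energy was -42.7 kcal/mol for Mir298, -43.2 for Mir296 and -56 for Mir675, which thus has the most stable predicted hairpin of the 5. Mir335 followed at -44.3 kcal/mol and Mir483 at -33.8 kcal/mol. No member shared a stretch of 20 bases with another hairpin of the table. Outside the miRNA genes themselves, the arms of miR-675 occurred in annotated H19 transcripts, and the other arms in no other annotated transcript. The search thus found no annotated copy elsewhere that could take their reads; the rest of the genome was not searched.

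The members lie on 3 chromosomes and in different parts of their loci (mm10). Mir335 (ENSMUSG00000065501.1, chromosome 6, 30741299 to 30741396, plus strand) lies on the strand of Mest, which encodes a hydrolase-like protein, and is intronic in all 7 Mest transcripts that span it. Mir483 (ENSMUSG00000070140.1, chromosome 7, 142654924 to 142654996, minus strand) is intronic in all 7 spanning transcripts of Igf2, the gene of a fetal growth factor, and in the transcript of the overlapping gene Gm49394. Mir675 (ENSMUSG00000076275.1, chromosome 7, 142577064 to 142577147, minus strand) lies 77.8 kb from Mir483. It is exonic in 3 of the 4 H19 transcripts that span it and intronic in the remaining 1.

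Mir298 (ENSMUSG00000065410.1, chromosome 2, 174267504 to 174267585) and Mir296 (ENSMUSG00000065521.1, chromosome 2, 174267047 to 174267125) are both on the minus strand, with 378 bases between them. In GENCODE M21 neither overlaps another gene. Mir298 begins 13.7 kb beyond the annotated 3′ end of Nespas, on the same strand, and 16.7 kb from the start of Gnas, which encodes the stimulatory G protein alpha subunit on the other strand.

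**Figure D1:**
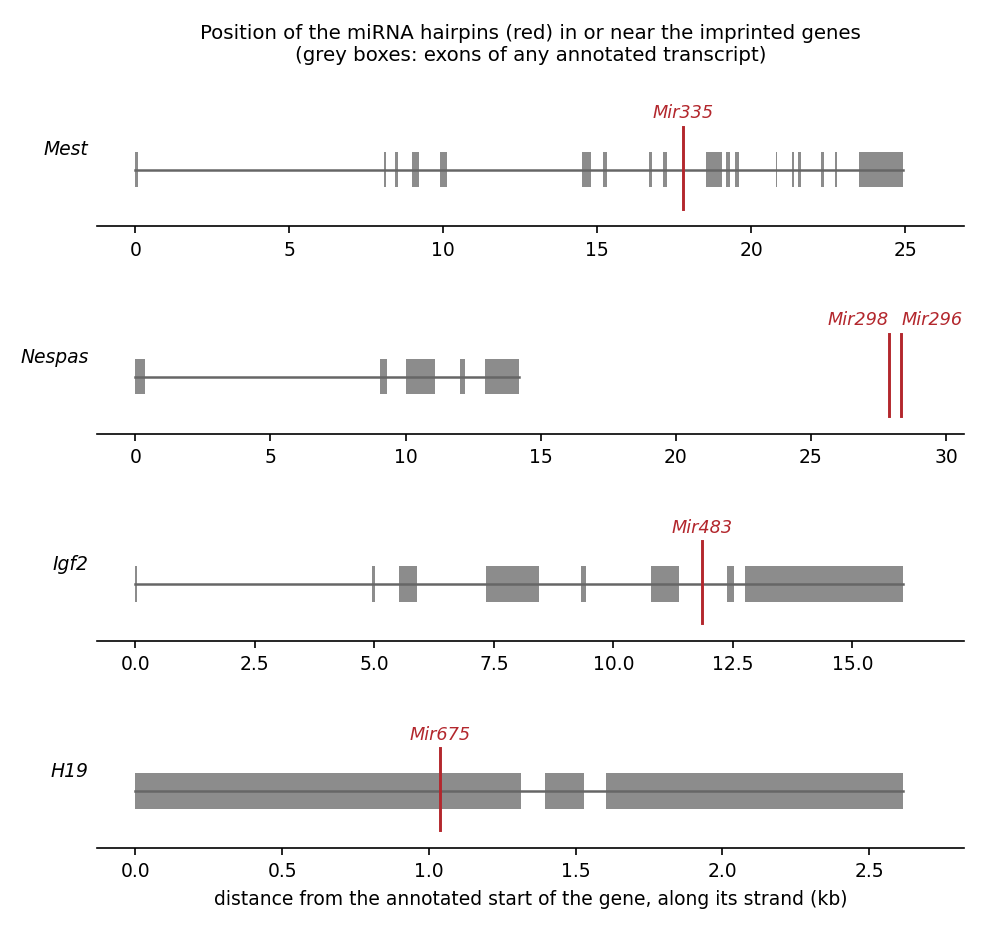
Positions of the hairpins (red lines) along Mest, Nespas, Igf2 and H19; the x axis is the distance in kb from the annotated start of each gene along its strand, and grey boxes are exons of any annotated transcript. Mir335 and Mir483 stand between exons, Mir675 stands in an exon of H19, and Mir298 and Mir296 stand past the 3′ end of Nespas.

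Of the 5 genes, Mir335 dominated, Mir298 was moderate, Mir296 and Mir483 were low and Mir675 was not detected. Levels are sense-strand counts scaled to 1000000 counts in miRNA genes (CPM), with exact 95% Poisson intervals that cover counting error only, since reads of ligated and amplified libraries are not independent molecules. Replicate 1 held 2255838 sense counts and replicate 2 held 4521208. The 5 genes took 0.414% of these counts in replicate 1 and 0.442% in replicate 2, or 0.428% ± 0.0197 (SD, n = 2). Mir335 made up 83.4% of the members' counts in replicate 1 and 90.9% in replicate 2. Each read of under 30 nt fits within about 1 arm, so no correction for the hairpins' length (73 to 98 bases) was made, and comparisons between genes are of reads, not molecules.

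Mir335, best known from work on tumour metastasis, had 7797 counts in replicate 1 and 18159 in replicate 2. These were levels of 3456 CPM (3380 to 3534) and 4016 CPM (3958 to 4075), a mean of 3736 ± 396 CPM (SD, n = 2). It ranked 51st and 47th among the 2202 genes, and stood above every other member in both libraries without overlap.

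Mir298, known as a regulator of the amyloid precursor protein and its beta-secretase, had 1252 counts in replicate 1 and 1172 in replicate 2, although replicate 2 was sequenced more deeply. Its levels were 555 CPM (525 to 587) and 259 CPM (245 to 274), a mean of 407 ± 209 CPM (SD, n = 2), and its mean ranked 133rd. Both values lay below those of Mir335 and above those of Mir296 and Mir483.

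Mir296, described in endothelial growth and angiogenesis, had 128 and 390 counts, levels of 56.7 CPM (47.3 to 67.5) in replicate 1 and 86.3 CPM (77.9 to 95.3) in replicate 2. Its mean was 71.5 ± 20.9 CPM (SD, n = 2). Mir483, known for its co-expression with Igf2 in growing tissue and tumours, had 167 and 265 counts, levels of 74.0 CPM (63.2 to 86.1) and 58.6 CPM (51.8 to 66.1), a mean of 66.3 ± 10.9 CPM (SD, n = 2). The order of these neighbours differed between the libraries: Mir483 was higher in replicate 1 and Mir296 in replicate 2. Their ranges overlapped, so their means, at ranks 219 and 222, did not differ beyond the spread between libraries.

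Mir675, a miRNA of the H19 exon known from restraint of placental growth, had 0 counts in both libraries, also without strand and on the antisense strand. Taking 3 counts as the most that a count of 0 allows, a limit slightly below the upper end of the two-sided intervals used for the levels, Mir675 could reach 1.33 CPM in replicate 1 and 0.664 CPM in replicate 2. Against that limit, with each other gene at its measured level, Mir483, in the neighbouring Igf2 intron, was at least 55.7-fold higher in replicate 1 and at least 88.3-fold higher in replicate 2. Mir335 was at least 2599-fold higher in replicate 1 and at least 6053-fold higher in replicate 2. Mir675 shares the lack of any count with 1468 of the 2202 genes (66.7%), whereas the other 4 members belong to the 446 genes (20.3%) that reached 1 CPM in both libraries.

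**Figure D2:**
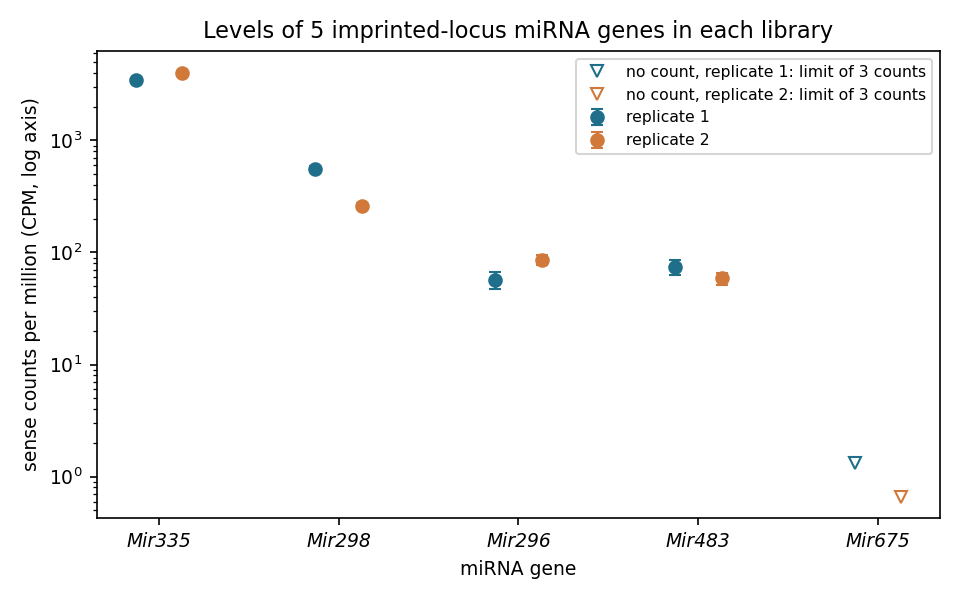
Levels of the 5 genes in each library, in CPM on a log axis; bars are exact 95% Poisson intervals, smaller than the points where not seen, and open triangles mark the level that 0 counts allow. Mir335 lies between 3456 and 4016 CPM, Mir298 between 259 and 555 CPM, Mir296 (56.7 to 86.3 CPM) and Mir483 (58.6 to 74.0 CPM) overlap, and Mir675 has no count.

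Antisense reads were almost absent at these genes. Over both libraries the antisense column held 1 count at Mir335, in replicate 1, and 0 at the other 4. In the unstranded column Mir335 had 7798 and 18159 counts, and the other members had the same counts as in the sense column, so no member lost reads there to a gene on the other strand.

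Between the libraries Mir298 differed most and in the opposite direction to its neighbour Mir296. With a single library per tissue sample there is no replicate check and no test, so each ratio is given with an exact conditional binomial interval for counting error only. Mir298 was 2.14-fold lower in replicate 2 (1.98 to 2.32), a log2 ratio of replicate 2 over replicate 1 of -1.098. Mir296 was 1.52-fold higher in replicate 2 (1.24 to 1.87), a log2 ratio of 0.60. Mir335 was 1.16-fold higher (1.13 to 1.19; log2 ratio 0.22) and Mir483 1.26-fold lower (1.03 to 1.54; log2 ratio -0.34).

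Differences of these sizes were common across all genes. Among the 495 genes whose mean reached 1 CPM, 119 (24.0%) differed by at least 2-fold: 38 (7.68%) were higher in replicate 2 and 81 (16.4%) were lower there. Of the 4 members that passed the 1 CPM minimum, 1 (Mir298) was past 2-fold, lower in replicate 2. Its absolute log2 ratio exceeded that of 77.6% of the 495 genes, while those of Mir296, Mir483 and Mir335 exceeded 57.8%, 33.9% and 22.2%. The median absolute log2 ratio was 0.47 over the 4 members and 0.51 over the 495 genes, and the median signed ratio was -0.060 and -0.18. Mir298 was past 2-fold only with total-count scaling: its log2 ratio was -0.98 with edgeR's TMM factors and -0.91 with DESeq2's size factors, which raise every log2 ratio by 0.12 and 0.19. Under each of these scalings Mir335 and Mir296 stayed higher in replicate 2 and Mir298 and Mir483 lower.

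**Figure D3:**
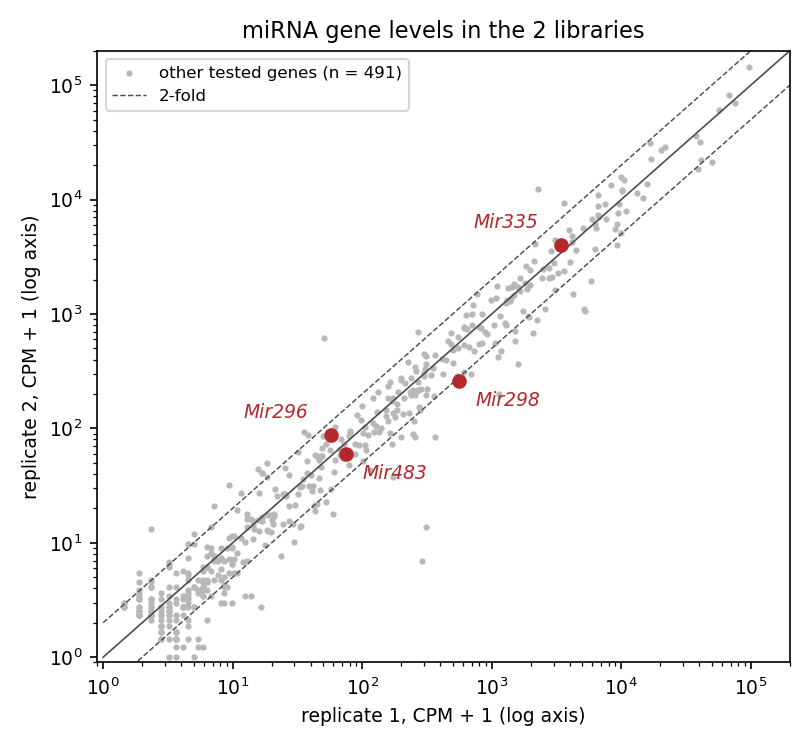
Level of each gene whose mean reached 1 CPM, in replicate 1 (x axis) and replicate 2 (y axis), as CPM + 1 on log axes; the solid line marks equal levels, the dashed lines 2-fold differences, and red points the members with counts. Mir335, Mir296 and Mir483 lie within the 2-fold lines, and Mir298 lies just beyond the lower one at 555 and 259 CPM.

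The balance of Mir296 and Mir298 can be read without any scaling. Mir296 had 0.102 counts per Mir298 count in replicate 1 (exact 95% interval 0.0846 to 0.123) and 0.333 in replicate 2 (0.296 to 0.373). The balance thus differed 3.25-fold between the libraries (2.63 to 4.04, log-normal interval for counting error). The hairpins shown above lie 378 bases apart on a single strand, so other such neighbours were examined, a comparison chosen after these values were seen. Genes under a mean of 10 CPM were left out. Hairpins then adjacent on a single strand, with at most 1000 bases between them, formed 59 pairs, so a hairpin left out can lie within a pair. The absolute difference of the log2 ratios within a pair had a median of 0.59 and quartiles of 0.36 and 1.09. It was 1.70 for Mir296 and Mir298, and larger for 6 pairs, the largest being 3.28 for Mir666 and Mir543 of the Dlk1-Dio3 locus. Unequal shifts within a pair were thus common in these libraries, but shifts as large as 1.70 were not. Counting error adds to the differences of pairs that include a gene of few counts, and was not removed. With total-count scaling 29 of the 59 pairs had log2 ratios of opposite sign. Unlike the differences, that count depends on the scaling, and it includes small ratios such as 0.014 and -0.20 for Mir409 and Mir412. The pairs share the same 2 libraries, some share a gene, and 23 of them lie on chromosome 12.

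**Figure D4:**
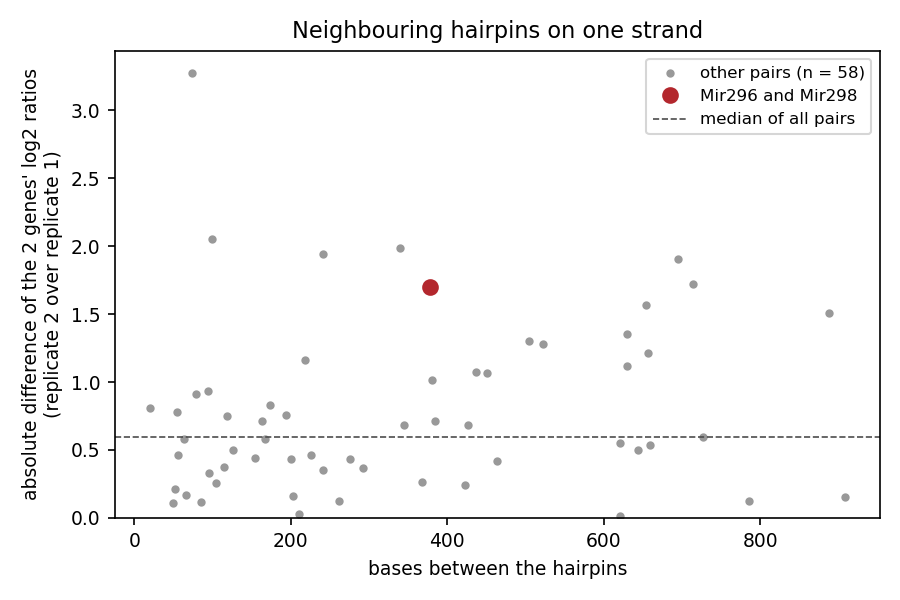
Absolute difference of the log2 ratios (replicate 2 over replicate 1) within each pair, against the number of bases between the hairpins. Pairs are hairpins adjacent on a single strand after genes under a mean of 10 CPM were left out. The dashed line is the median of all 59 pairs, 0.59. The pair of Mir296 and Mir298 (red), at 378 bases and 1.70, lies in the upper part, below 6 other pairs.

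Lists of cell type markers also differed between the libraries, and their part in the members' differences was not tested. The choroid plexus, ependyma and epithelium list, 17 genes of which Mir449b had no count, summed to 3616 CPM in replicate 1 and 1671 CPM in replicate 2. Of its 15 genes above the minimum, 8 were lower in replicate 2 by at least 2-fold and 0 were higher by as much. It was led by Mir34c, at 1597 and 366 CPM, and Mir204, at 1034 and 800 CPM. The microglia and leukocyte list, 9 genes with Mir142b at 0, summed to 10703 and 5304 CPM, led by Mir21a at 5880 and 1945 CPM and Mir342 at 3090 and 1632 CPM. Of its 8 genes above the minimum, 2 were lower in replicate 2 by at least 2-fold and 0 were higher by as much. With so few genes this does not stand apart from the 16.4% and 7.68% over all 495 genes. The 2 lower genes were Mir21a and Mir146b, the latter with 35 and 8 counts. The list had a median log2 ratio of -0.28, so its sum followed Mir21a and Mir342. Mir146, at 701 and 798 CPM, Mir155, at 24.4 and 43.8 CPM, and Mir223, at 12.9 and 15.3 CPM, were higher in replicate 2. Mir298 stood at 555 and 259 CPM, and Mir483, of a locus known from choroid plexus, at 74.0 and 58.6 CPM. Whether either followed any of these lists was not tested. In such bulk tissue, fewer cells of a type and less RNA per cell cannot be told apart.

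The summed levels of the remaining lists differed less between the libraries, which does not hold for each gene in them. The vascular and mesenchymal list (11 genes, with Mir126b, Mir145b and Mir199a-1 at 0) summed to 45033 and 44576 CPM. It was led by Mir126a, at 21890 and 29026 CPM, and Mir143, at 7538 and 9071 CPM. Mir221, at 10040 and 5067 CPM, and Mir222, at 5249 and 1072 CPM, went the other way. Among 6 genes above the minimum, 1 (Mir222) was lower in replicate 2 by at least 2-fold and 0 were higher by as much. The median log2 ratio of the list was 0.10. The neuron-enriched list (18 genes, none at 0), led by Mir132 and Mir128-1, summed to 72320 and 57085 CPM, or 7.23% and 5.71% of the counts. Mir132 stood at 38949 and 18329 CPM and Mir128-1 at 10436 and 14980 CPM, so the lower sum followed Mir132. Of its 16 genes above the minimum, 1 was higher and 2 were lower by at least 2-fold, with a median log2 ratio of -0.12. Over all 495 genes, 7.68% were higher and 16.4% lower by as much. The oligodendrocyte list (6 genes, with Mir219b and Mir219c at 0), led by Mir338 and Mir219a-2, summed to 6832 and 5395 CPM. Its median log2 ratio was -0.57, and 1 of 4 genes, Mir3065 with 7 and 1 counts, was lower by at least 2-fold. The erythroid list (4 genes in the files; Mir451b at 0), led by Mir451a, at 105 and 71.0 CPM, and Mir144, at 17.3 and 48.9 CPM, summed to 138 and 136 CPM. The list for muscle, liver, endocrine and other organs (17 genes, 6 at 0) summed to 699 and 426 CPM. It was led by Mir375, at 613 and 308 CPM, and Mir122, at 14.6 and 43.1 CPM, so the lower sum followed Mir375. Among 6 genes above the minimum, 1 (Mir122) was higher in replicate 2 by at least 2-fold and 0 were lower by as much. The median log2 ratio of that list was 0.091. Neuron-enriched miRNAs thus took a larger share of the counted reads than those of other organs in both libraries, under a label of brain tissue. Multimapping reads, 36.2% and 47.9% of all reads, are not in these sums, so genes with several copies can be undercounted. The zeros of Mir1a-1, Mir1a-2, Mir133a-1 and Mir133a-2 are thus no proof of absence. The same holds for the low counts of the neuron-enriched Mir124a-1, at 2 and 13.

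Genes of the most similar level and balance were found as those nearest in log2(CPM + 1) over the 2 libraries, which is a description from 2 points per gene. Nearest to Mir335 were Mir674, at 3174 and 4117 CPM, and Mir541 of the Dlk1-Dio3 locus, at 3056 and 4470 CPM. Nearest to Mir298 were Mir212, linked to neuronal activity, at 543 and 286 CPM, and Mir375, known from endocrine cells, at 613 and 308 CPM. Mir296 lay nearest to Mir214, at 48.8 and 84.3 CPM, and Mir148b, at 60.3 and 103 CPM. Mir483 lay nearest to Mir190a, at 77.6 and 59.5 CPM, and Mir1198, at 68.7 and 61.7 CPM. All of these genes lie on other chromosomes than their member. They were picked for closeness in level, so their similar levels are no separate result.

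The surroundings of the members held few counted miRNAs, apart from those of Mir335. Within 1 Mb of Mir335 lie 6 other annotated miRNA genes, of which 5 reached 1 CPM in both libraries, all on the opposite strand. Mir29a, 321 kb away, had 16557 CPM in replicate 1 and 31007 CPM in replicate 2, above Mir335, and Mir29b-1 beside it had 36.8 and 51.1 CPM. The sensory cluster of Mir183, Mir182 and Mir96, 572 to 575 kb away on the other side, had 198, 99.7 and 3.10 CPM in replicate 1 and 83.8, 51.1 and 1.77 CPM in replicate 2. Around Mir296 and Mir298 the 2 other miRNA genes, Mir6340 and Gm27591, had no count, so these hairpins were the only ones with counts within 1 Mb. Near Mir483 and Mir675 only Mir3104, at 2.66 and 1.99 CPM, and, near Mir675, Mir7063, at 1.33 and 3.54 CPM, reached 1 CPM in both libraries.

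As a set, the 5 genes lay between the large imprinted miRNA clusters in their share of counts. The 67 miRNA genes from Meg3 to Dio3os in the Dlk1-Dio3 region took 11.3% ± 1.42 (SD, n = 2), led by Mir127 and Mir411, and the 119 in Sfmbt2 took 0.0814% ± 0.00258, led by Mir467d and Mir467e. Mir335 alone, at 0.374%, exceeded the sum over Sfmbt2 in both libraries. The position of the set rested on it: the other 4 members together took 0.0686% in replicate 1 and 0.0404% in replicate 2, below Sfmbt2 at 0.0833% and 0.0796%. Many Sfmbt2 hairpins are known as near copies of each other and can lose reads to multimapping, so this comparison is of counted reads only.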

How the data were processed

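Small RNA libraries from 2 hippocampal tissue samples of a single group were analysed. The authors deposited raw counts per miRNA gene, without strand, sense and antisense, 1 file per library, not pooled, with assembly mm10 and annotation M21 per the README files deposited beside them. No aligner, counter or setting is named, and each was taken as not given in the sources used here. The 4 rows of totals were left out of library sizes. In replicate 1, of 7481717 reads, 30.2% were sense counts, 29.0% unmapped, 36.2% multimapping and 4.68% in no gene. In replicate 2, of 12159538 reads, these were 37.2%, 11.2%, 47.9% and 3.72%. Reads were aligned to the B6 genome, so reads of the CAST allele, the paternal one, could be lost where it differs. Such loss could touch more of the reads of members at loci named above as paternally expressed than of Mir675, if that bias holds in this tissue. Neither the loss nor the bias was measured.

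Sense counts were scaled to CPM on their sum over genes. Log2 ratios used a pseudocount of 0.5 counts, and the libraries were compared at 2-fold over genes whose mean reached 1 CPM. The calculation of ratios and intervals was checked on simulated independent Poisson counts, which cannot show how well the intervals fit real libraries. Positions and hosts were taken from GENCODE M21 and sequences from RefSeq (GRCm38.p6), which matched all 5 members at identical positions. Structures were predicted with RNAfold 2.7.2. Scaling alternatives used edgeR 4.0.16 (TMM) and DESeq2 1.42.0 (size factors), with R 4.3.3, Python 3.11.15 and scipy 1.17.1. The named genes are the 5 members, the 2 genes nearest to each in level, miRNA genes within 1 Mb at 1 CPM or more in both libraries, the 2 highest of each imprinted cluster and marker list, and same-seed miRNAs. Mir666, Mir543, Mir6340, Gm27591 and marker list genes beyond the 2 highest were named after their values were seen. The members and lists were chosen with earlier results of these data known. Mir486b of the erythroid list had no match by name.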

Additional observations from a re-analysis of the deposited data

How the results depend on the processing

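Mir335 and Mir296 stayed higher and Mir298 and Mir483 lower in replicate 2 under TMM factors, DESeq2 size factors, a pseudocount of 5 counts and unstranded counts. Mir298 was past 2-fold with the last pair of settings (log2 ratio -1.09 and -1.08) but not with the scalings (-0.98 and -0.91). The members' share of all counts was 0.469% in the unstranded column, whose total is smaller because other genes lose reads there, and 0.0545% without Mir335. With either library left out it lay between 0.414% and 0.442%. The number of genes past 2-fold, 119 of 495, was 304 of 734 with no filter on low counts and 53 of 310 at a mean of 10 CPM or more, where other genes are tested. It was 115 and 113 with the scalings, of which 39.1% and 41.6% were higher in replicate 2, against 31.9% with total counts, and 80 with a pseudocount of 5 counts, of which 23.8% were higher. Mir296 and Mir298 lay further apart than all but 7 of 71 neighbour pairs with a minimum of 1 CPM and all but 9 of 96 with up to 10000 bases between hairpins, both chosen after the data were seen. No paired analysis was possible because the 2 libraries form 1 group. With n = 2, each SD rests on 1 difference.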

Other observations

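The spread of the members depends on what the counts are divided by. Scaled to 1000000 of all reads, with unmapped, multimapping and unassigned reads included, Mir483 stood at 22.1 ± 0.373 (SD, n = 2), Mir298 at 132 ± 50.2, Mir296 at 24.6 ± 10.6 and Mir335 at 1268 ± 319. On that scale Mir483 was the member that differed least between the libraries for its level, whereas in CPM it was Mir335, with an SD of 10.6% of its mean against 16.4% for Mir483. The unmapped share of reads was 29.0% in replicate 1 and 11.2% in replicate 2.

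The GC content of the hairpins set Mir335 apart from the other members. It was 42.9% for Mir335, below the median of 51.7% over the 1005 hairpins of the RefSeq table, and 53.7% for Mir298, 58.9% for Mir483, 63.1% for Mir675 and 63.3% for Mir296.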
